A study of Arabidopsis thaliana with 72 samples.

Results

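The light reactions of photosynthesis run through a chain of thylakoid complexes whose smaller subunits are encoded in the nucleus. Photosystem II takes electrons from water at its oxygen-evolving complex, the cytochrome b6f complex passes them to plastocyanin, and photosystem I passes them on to ferredoxin and ferredoxin-NADP reductase. The proton gradient built on the way drives the chloroplast ATP synthase. In plants these nuclear genes are known to be expressed chiefly in green tissue and to follow light and the time of day.

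The transcripts of 34 such nuclear genes were followed in Arabidopsis thaliana seedlings given t-chalcone, a plant-derived phytotoxin. The genes were chosen by identifier, and all 34 were among the 22884 genes of the deposited table. They comprised 12 genes of photosystem I, 13 of photosystem II and 9 of electron transport and the ATP synthase, and all passed the filter on low values in both tissues.

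Shoots and roots came from seedlings 14 days old, kept on agar plates with a photoperiod of 16 h and nights of 8 h. Plates received 21 μM t-chalcone, or 0.1% ethanol (EtOH) as the control, 7 h after lights on. Tissue was taken at 0 h and at 1, 3, 6, 12 and 24 h, with 3 libraries in each of 22 groups. Only the 12 h samples fell in the dark. The 0 h values were deposited under both an EtOH and an untreated label, and are called EtOH 0 h below. Which treatment these libraries had is not known. The labels name neither the strain nor the number of plants behind a library, and do not say that replicates came from separate plates, so p-values measure the spread between these libraries, which may be technical.

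Values are normalised read counts, that is gene counts divided by a size factor per library. Total counts per library ran from 246000 to 26000000 in shoots and from 128000 to 22500000 in roots. Of the 66 libraries, 5 held under 500000 counts and are called shallow below. These were roots EtOH 0 h replicate 1, roots EtOH 3 h replicate 1, shoots EtOH 12 h replicate 2, shoots EtOH 24 h replicate 3 and shoots t-chalcone 24 h replicate 2. The tissue labels held: the summed level of 7 green tissue markers was 84860 to 392600 in shoots and 856.5 to 2919 in roots, while that of 12 root markers was 2272 to 8773 in shoots and 40480 to 115900 in roots. A change is the log2 difference of group means of log2(value + 1), with its standard error (SE). It was called when limma's p, adjusted over all genes tested by the Benjamini-Hochberg method, was under 0.05. In bulk tissue, fewer cells of a type and less RNA per cell cannot be told apart.

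Photosystem I transcripts were lower in t-chalcone shoots at 6 h than in EtOH shoots. Of the 12 photosystem I genes, 10 fell, with a median change over all 12 of -0.98 on the log2 scale. Of the 13 photosystem II genes, 3 fell and 1 rose, with a median of -0.31. None of the 9 transport and ATP synthase genes was called, and their median change was 0.11. Over all 22884 genes tested in shoots, 1.55% were called at 6 h in either direction and the median change was 0.01.

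The largest fall among the 34 was that of PSAD2 (AT1G03130), which encodes a form of the stromal subunit on which ferredoxin docks. Its normalised read counts were 4002, 3660 and 3908 in the EtOH libraries and 758.1, 792.4 and 1017 in the t-chalcone libraries. The groups lay far apart, and the t-chalcone level was 22.0% of the EtOH level (change -2.18, SE 0.17, limma adjusted p = 3.07e-10). Its partner PSAD1 (AT4G02770) stood at 11800, 10830 and 10790 with EtOH and at 5313, 5839 and 7082 with t-chalcone, a change of -0.88 (SE 0.14).

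PSAF (AT1G31330), the subunit on which plastocyanin docks, went from 18940, 18340 and 19040 to 6311, 6692 and 7940. Its change was -1.43 (SE 0.13, adjusted p = 7.32e-09). PSAN (AT5G64040), a subunit on the lumenal side, had 12750, 17310 and 15330 counts with EtOH and 4955, 4403 and 6344 with t-chalcone. The PSAN groups did not overlap, although its EtOH libraries were more spread than those of PSAF (change -1.54, SE 0.20, adjusted p = 1.46e-05).

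The subunits PSAH, PSAL and PSAO form the side of photosystem I where the light-harvesting complex of photosystem II can dock. PSAO (AT1G08380) had 20480, 20990 and 20030 counts with EtOH and 7228, 6902 and 8879 with t-chalcone (change -1.43, SE 0.23). PSAH2 (AT1G52230) fell by 1.03 (SE 0.19) and PSAL (AT4G12800) by 0.86 (SE 0.17) on the log2 scale. PSAG and PSAK, membrane subunits at the antenna belt, fell by 0.93 (SE 0.17) and 0.82 (SE 0.15). PSAE1 (AT4G28750), a stromal subunit beside the ferredoxin site, went from 9282, 8399 and 8519 to 3617, 3548 and 4433 (change -1.18, SE 0.16).

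The 2 photosystem I genes that did not pass at 6 h were PSAE2 and PSAH1. PSAE2 (AT2G20260) had 5495, 4939 and 5300 counts with EtOH and 3379, 3489 and 4132 with t-chalcone (change -0.52, SE 0.19, limma adjusted p = 0.256). PSAH1 (AT3G16140) had 5590, 5461 and 5305 against 3080, 3120 and 3609 (change -0.74), but its SE was 0.71. That SE is shared over all 11 shoot groups, and one of its values, 121.5 in shoots EtOH 12 h replicate 2, came from a shallow library. In both genes the 6 h groups did not overlap. Without the shallow libraries, PSAE2 had an adjusted p of 0.0175 and PSAH1 one of 4.11e-05, so that all 12 photosystem I genes were called. In that fit the other complexes gained calls as well: photosystem II had 6 lower and 1 higher, and transport 1 lower and 1 higher. The share of all genes called in that fit is not given here, so a general gain in calls cannot be told from one of these genes.

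**Figure D1:**
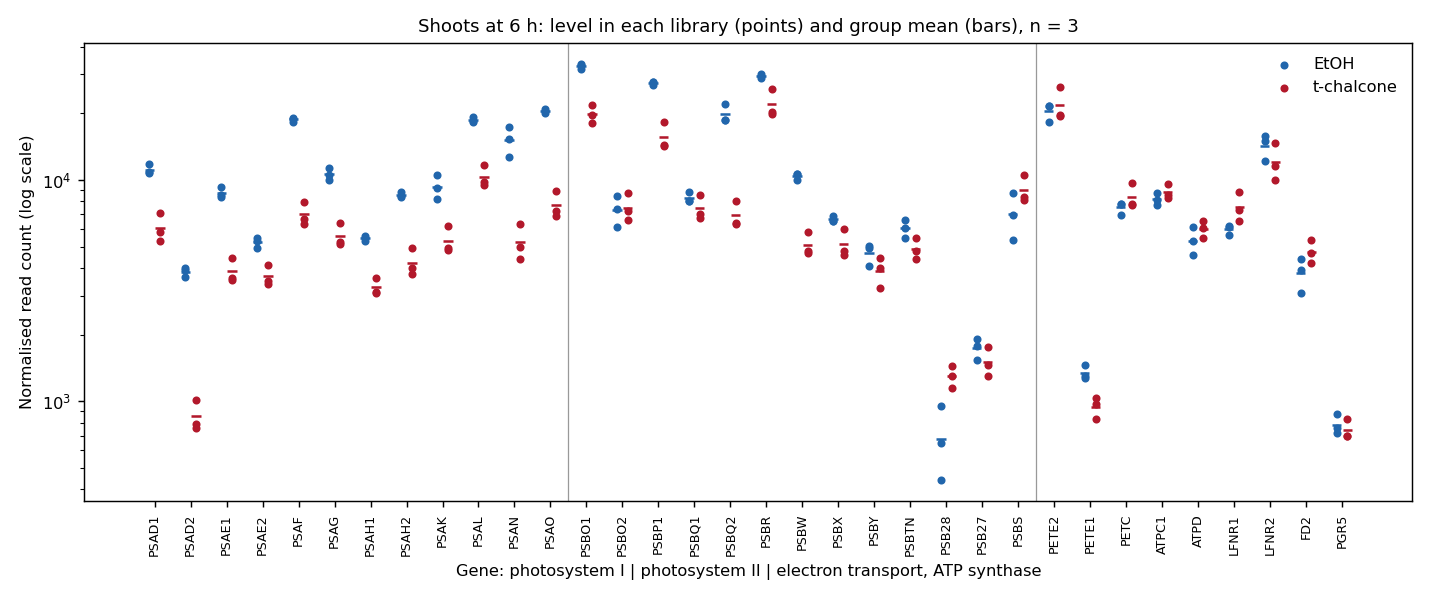
Normalised read count (log axis) of each of the 34 genes in the 6 shoot libraries at 6 h. Points are libraries, bars are the means of 3 libraries, blue is EtOH and red is t-chalcone. Every photosystem I gene has its 3 t-chalcone points below its 3 EtOH points, while most transport genes overlap.

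Among photosystem II genes, those that moved at 6 h had different roles. PSBQ2 (AT4G05180), of the oxygen-evolving complex, had 21990, 18650 and 18640 counts with EtOH and 6407, 6356 and 8034 with t-chalcone (change -1.52, SE 0.15, limma adjusted p = 8.77e-08). PSBW (AT2G30570), a small membrane subunit, went from 10640, 10010 and 10650 to 4793, 4658 and 5815 (change -1.04, SE 0.12). For both genes the t-chalcone libraries were all far below the EtOH libraries. PSBO1 (AT5G66570), which stabilises the manganese cluster, fell by 0.73 (SE 0.19), just inside the threshold (limma adjusted p = 0.0445). Its counts were 33560, 32990 and 31790 with EtOH and 18030, 19570 and 21760 with t-chalcone, without overlap.

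One photosystem II gene moved the other way. PSB28 (AT4G28660), an assembly factor found in cyanobacteria on early forms of the complex, had 439.3, 950.4 and 646.8 counts with EtOH and 1143, 1308 and 1443 with t-chalcone. It rose by 1.00 (SE 0.23, limma adjusted p = 0.0151). The lowest t-chalcone library was above the highest EtOH library, and the EtOH libraries were widely spread.

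The calls of PSBO1 and PSB28 were the least firm of the 14. PSBO1 was not called without any 1 of the 6 libraries (limma adjusted p from 0.0724 to 0.236). PSB28 was not called without EtOH replicate 1 (adjusted p = 0.234) or 3 (0.0675), or t-chalcone replicate 2 (0.0799) or 3 (0.0922). The other 12 calls held whichever of the 6 libraries was left out.

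The remaining 9 photosystem II genes did not pass at 6 h. PSBP1 (AT1G06680), of the oxygen-evolving complex, had 26850, 27630 and 27780 counts with EtOH and 14360, 14290 and 18360 with t-chalcone (change -0.82, SE 0.38). The groups did not overlap, but the SE took in a value of 222900 in shoots EtOH 12 h replicate 2, and without the shallow libraries its limma adjusted p was 3.56e-05. PSBS (AT1G44575), the sensor of lumen pH in non-photochemical quenching, had a change of 0.38 (SE 0.17). PSBR, PSBX, PSBY, PSBTN, PSB27, PSBQ1 and PSBO2 had changes between -0.44 and 0.04. Of these, PSBX (-0.39, SE 0.14) was called lower without the shallow libraries (limma adjusted p = 0.013), by edgeR (0.0464) and in a fit of these 6 libraries alone (0.046), and PSBR (-0.44, SE 0.25) without the shallow libraries (0.0258). In the fit of these 6 libraries PSAE2, PSAH1 and PSBP1 were called too.

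The chain between and after the photosystems gave no call at 6 h with all libraries. PETE2 (AT1G20340), the major plastocyanin, had 18180, 21590 and 21580 counts with EtOH and 19540, 19700 and 26170 with t-chalcone (change 0.08, SE 0.14). PETC, the Rieske protein of cytochrome b6f, had a change of 0.15 (SE 0.20), and the ATP synthase subunits ATPC1 and ATPD had 0.11 (SE 0.14) and 0.18 (SE 0.14). FD2 (AT1G60950), the main leaf ferredoxin, and LFNR1, a leaf ferredoxin-NADP reductase, both had changes of 0.33 (SE 0.17). PGR5, which acts in cyclic electron flow, had -0.08 (SE 0.20). The lowest value was that of the minor plastocyanin PETE1, -0.51 (SE 0.18, limma adjusted p = 0.228), whose groups did not overlap. PETE1 was called lower without the shallow libraries (limma adjusted p = 0.0115), by edgeR (0.0228) and in a fit of these 6 libraries alone (0.0074). LFNR1 was called higher without the shallow libraries (limma adjusted p = 0.0346).

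Other thylakoid genes were read from lists drawn up by function. All 14 light-harvesting antenna genes fell at 6 h, with a median of -2.71. They ranged from LHCB4.1 at -0.76 (SE 0.16) to LHCB1.1 at -5.95 (SE 0.25), so the fall of antenna transcripts was deeper than that of photosystem I by the median. None of 16 genes of the NDH complex and the PGRL1 proteins was called, with a median of 0.48. No call was made among 16 assembly and repair factors (median 0.17), 13 further thylakoid proteins (0.08) or 6 other ferredoxins and ferredoxin reductases (0.37). Of 13 regulators, 1 fell, the phytochrome-interacting factor PIF4 (change -3.30, SE 0.59).

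Genes of carbon fixation went in the other direction. Of 7 green tissue markers, which also mark the share of mesophyll, 3 rose and none fell at 6 h, with a median of 0.99. Those called were RBCS1B (1.72, SE 0.32) and RBCS2B (1.29, SE 0.23), small subunits of Rubisco, and the carbonic anhydrase CA1 (1.26, SE 0.27). The summed level of the 7 markers was 88220, 135100 and 160500 with EtOH and 198200, 201100 and 260500 with t-chalcone. Their part in the photosystem results was not tested. Summed levels of 7 shoot markers that are not photosynthetic overlapped, at 33500 to 34450 with EtOH and 31920 to 35390 with t-chalcone. Those of 12 root markers overlapped too, at 4368 to 7060 and 4103 to 6663. Both sums rest mostly on their highest genes, TGG1 (median 23440 in shoot EtOH libraries) and PYK10 (4973). Their overlap therefore says little about the other markers.

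At the other times in shoots few of the 34 genes were called. At 1 h none passed, against 0.0481% of all genes, and the median change was 0.07 where that of all genes was 0.04. At 3 h again none passed by limma, against 0.035% of all genes. Yet 33 of the 34 changes were negative, with a median of -0.39 where that of all genes was -0.06. An unadjusted p under 0.05 was reached by 17 of the 34 at 3 h and by 0 of the 34 at 1 h. The share of all genes at that p is not given here, so these counts alone do not set the members apart. Photosystem I and II did not stand apart at 3 h, with medians of -0.37 and -0.39. The 7 green tissue markers were all negative as well, with a median of -0.53 and 5 at an unadjusted p under 0.05. Their summed level was 157100 to 209400 with EtOH and 123000 to 129500 with t-chalcone, without overlap, and the 14 antenna genes had a median of -0.59. None of either list was called, and their part in the 3 h values was not tested.

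FD2 had the most negative 3 h change among the transport genes, with 7062, 7293 and 5341 counts with EtOH and 3631, 4469 and 4376 with t-chalcone (change -0.65, SE 0.17, limma adjusted p = 0.238). The groups did not overlap. FD2 was the 1 gene of the 34 called by edgeR's quasi-likelihood test on recovered whole numbers (adjusted p = 0.0463). PSBY had the most negative 3 h change of the 34, -0.75 (SE 0.19), with overlapping groups of 7505, 7375 and 5801 against 3381, 6008 and 3341. Without the shallow libraries, none of which is at 3 h in shoots, 14 of the 34 were called lower: 5 of photosystem I, 6 of photosystem II and 3 of transport. Without t-chalcone 3 h replicate 2, 5 were called. The share of all genes called in these fits is not given here.

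At 12 h, in the dark, 3 photosystem I genes were called higher with t-chalcone, against 0.76% of all genes. These were PSAO (change 1.02, SE 0.23), PSAG (0.82, SE 0.17) and PSAL (0.70, SE 0.17). PSAO had 18000, 5629 and 14550 counts with EtOH and 21990, 23230 and 24310 with t-chalcone. The middle EtOH value came from replicate 2, a shallow library, and was the lowest of the 6 for PSAG and PSAL as well. In this library 77.8% of genes stood at its lowest value, the highest share of any library. Without it no member was called and the PSAO change was 0.52 (limma adjusted p = 0.0657). Without all shallow libraries, of which it is the only one at 12 h in shoots, PSAG (0.51, adjusted p = 0.0336), PSAO (0.52, 0.0344) and the photosystem II gene PSBX (0.44, 0.0398) were called. The medians in that fit were 0.36 for both photosystems. Without EtOH replicate 1 or 3, 15 were called, and without any 1 of the t-chalcone libraries 0 were. By edgeR 1 was called, PSAG, and in a fit of these 6 libraries alone 0 were.

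Marker lists moved the same way at 12 h. All 7 shoot markers that are not photosynthetic had positive changes, with a median of 0.90 and 1 called, and their summed level was 9840, 34230 and 34830 with EtOH and 36530 to 41160 with t-chalcone. All 7 green tissue markers were positive too, with a median of 0.71 and none called (5 at an unadjusted p under 0.05), and overlapping sums of 135600 to 353000 and 343800 to 392600. Their part in the photosystem I calls was not tested.

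At 24 h 1 gene was called, against 1.14% of all genes. PSBS had 14280, 14860 and 13350 counts with EtOH and 6976, 7486 and 8347 with t-chalcone, a fall of 0.90 on the log2 scale (SE 0.17, limma adjusted p = 0.00358). The groups were well apart. PSB28, which had been higher with t-chalcone at 6 h, had 1375, 1486 and 1299 against 652, 922.7 and 738.5 at 24 h (change -0.86, SE 0.23, adjusted p = 0.0562). It was called by edgeR (adjusted p = 0.019), in a fit of these groups alone, and without the shallow libraries (0.00265).

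The 24 h groups mix 2 kinds of library. In EtOH replicate 2 and t-chalcone replicate 1 the description gives an S number in place of an index. What the S number marks is not stated. Without both, PSBS had a change of -0.81 (limma adjusted p = 0.118) and no member was called. Without EtOH replicate 1 alone 2 members were called, and without the shallow t-chalcone replicate 2 alone 3 were. Green tissue markers were lower at 24 h, with 4 of 7 called (RBCS1A, RBCS1B, CA1 and GLDP1) and a median of -0.82. Their summed level was 318600 to 369300 with EtOH and 171700 to 198900 with t-chalcone, and their part in the PSBS result was not tested.

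**Figure D2:**
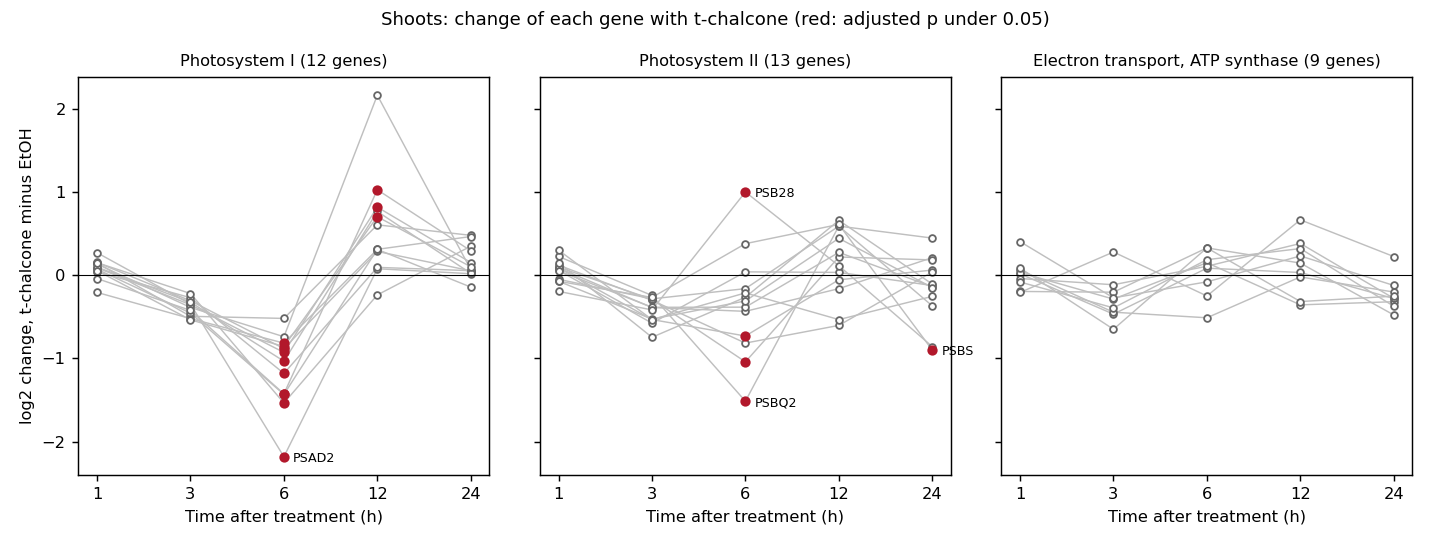
Log2 change of each gene, t-chalcone minus EtOH, in shoots at 1, 3, 6, 12 and 24 h, by complex. Each line is 1 gene and red points are those with an adjusted p under 0.05. Photosystem I genes dip together at 6 h (10 of 12 called) and lie at or above 0 at 12 h in 11 of 12 cases.

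Whether the t-chalcone effect differed between the 5 times was asked with an F test per gene, added after the data were seen. In shoots it passed for 16 of the 34 genes, against 2.68% of all genes. These were 11 of the 12 photosystem I genes, 5 of the 13 photosystem II genes (PSBQ2, PSBW, PSBY, PSB28 and PSBS) and 0 of the 9 transport genes. The photosystem I gene that did not pass was PSAH1, whose SE is given above. Without EtOH 12 h replicate 2 alone 29 genes passed. Without the shallow libraries the counts were 12, 13 and 6, so the contrast between complexes in this count rests on those libraries. In roots 0 of the 34 passed, against 8.21% of all genes.

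Photosystem I and II were also set side by side within each library, as the mean log2 level of the 12 genes minus that of the 13. In shoots at 6 h this difference was 0.20, 0.34 and 0.46 with EtOH and -0.48, -0.45 and -0.42 with t-chalcone. The values crossed from above to below 0 and did not overlap. The place of 0 depends on the genes listed, and levels here were not scaled for transcript length. The median change of photosystem I minus that of photosystem II was -0.67 at 6 h, and between -0.75 and -0.59 whichever library was left out. This is a description of these libraries and carries no p.

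At 1 and 3 h the within-library difference overlapped between treatments, at 0.33 to 0.36 against 0.33 to 0.41, and at 0.33 to 0.42 against 0.36 to 0.46. At 24 h it lay the other way round, at -0.08, -0.07 and -0.02 with EtOH and at 0.21, 0.26 and 0.30 with t-chalcone. At 12 h the shallow EtOH library stood at -1.13, its 2 companions at 0.07 and 0.10, and the t-chalcone libraries at 0.02, 0.13 and 0.13.

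**Figure D3:**
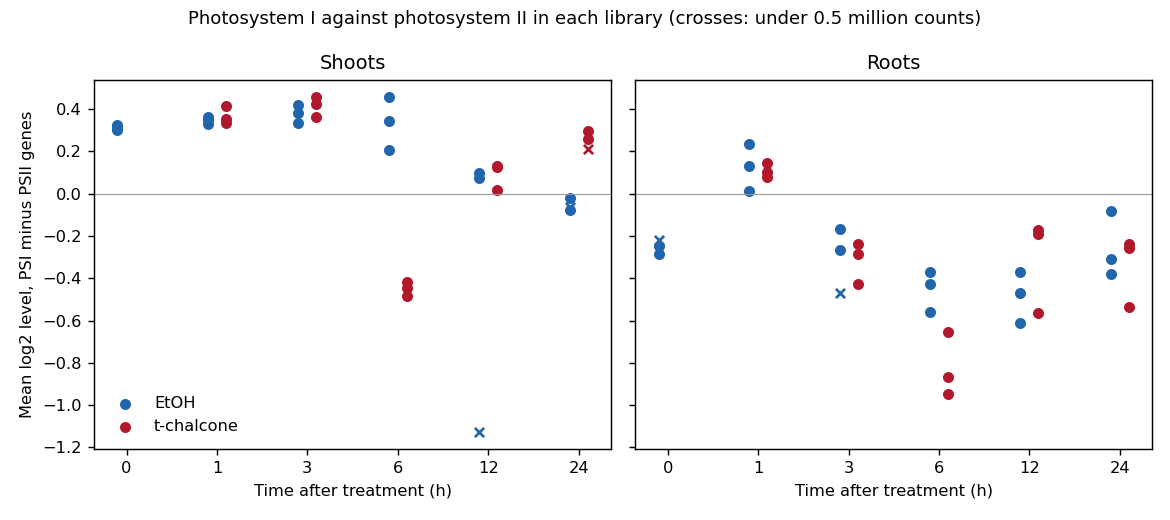
Mean log2 level of the 12 photosystem I genes minus that of the 13 photosystem II genes, 1 point per library, by time, in shoots (left) and roots (right). Blue is EtOH, red is t-chalcone and crosses mark the 5 libraries under 500000 counts. The 3 shoot t-chalcone libraries at 6 h lie from -0.48 to -0.42, below the EtOH libraries at 0.20 to 0.46.

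Several subunits are encoded by gene pairs, and their members differed. Reads of near-identical stretches may be split between partners, since the sources used here do not say how such reads were counted. The log2 ratio of PSAD2 to PSAD1 was -1.56, -1.56 and -1.46 in shoots with EtOH at 6 h and -2.88, -2.81 and -2.80 with t-chalcone. PSBQ2 over PSBQ1 went from 1.08, 1.21 and 1.46 to -0.15, -0.10 and -0.08, so the more abundant partner with EtOH was the less abundant with t-chalcone.

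In the PSAE pair the ratio moved towards the minor gene: PSAE2 over PSAE1 was -0.77, -0.76 and -0.68 with EtOH and -0.10, -0.10 and -0.02 with t-chalcone. PSBO2 over PSBO1 likewise stood at -2.46, -2.11 and -1.96 against -1.45, -1.43 and -1.32. PSBO2 itself had 6110, 8491 and 7366 counts with EtOH and 6579, 7242 and 8693 with t-chalcone, which overlap. PSAH2 over PSAH1 was 0.60 to 0.70 against 0.28 to 0.44. All 7 pairs had 6 h ratios that did not overlap between treatments, and other gene pairs were not examined. This includes the ratios of plastocyanin (PETE1 over PETE2, -4.08 to -3.64 against -4.66 to -4.34) and of leaf ferredoxin-NADP reductase (LFNR2 over LFNR1, 1.11 to 1.35 against 0.61 to 0.73).

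At 24 h 2 of the pairs had the opposite order. PSBQ2 over PSBQ1 had a mean of 0.41 with EtOH and 1.22 with t-chalcone, and LFNR2 over LFNR1 one of -0.76 and -0.06. PSAE2 over PSAE1 was again higher with t-chalcone, at -1.14 against -1.56. None of these 3 pairs overlapped between treatments at 24 h, and pair ratios were not tested.

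**Figure D4:**
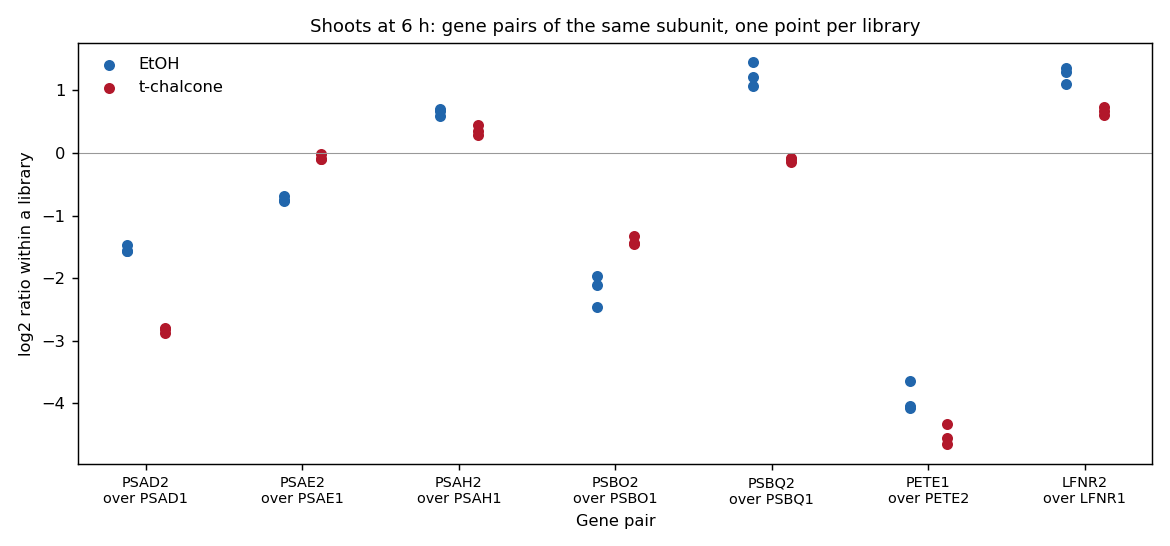
Log2 ratio of the normalised read counts of 2 genes encoding the same subunit, in each shoot library at 6 h. Blue is EtOH (n = 3) and red is t-chalcone (n = 3). All 7 pairs are separated, and PSBQ2 over PSBQ1 passes from above 1 to just below 0.

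The same genes differed strongly between 0 h and later times in EtOH shoots. If the 0 h libraries were untreated, EtOH and time cannot be told apart here. At 1 h, 29 of the 34 were lower than at 0 h, against 13.8% of all genes called in either direction, with a median of -1.08. All 34 had their 3 EtOH 1 h libraries below the 3 at 0 h, a separation not counted over all genes. The complexes were alike in this, with 10 of 12 photosystem I, 11 of 13 photosystem II and 8 of 9 transport genes called lower and medians of -1.16, -1.17 and -1.08.

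The deepest 1 h falls were those of ATPD, the delta subunit of the ATP synthase, and PSAH2. ATPD (AT4G09650) had 7431, 6185 and 6728 counts at 0 h and 1938, 1710 and 1784 at 1 h (change -1.90, SE 0.14, limma adjusted p = 2.28e-10). PSAH2 had 12360, 10850 and 12270 counts at 0 h and 3562, 2992 and 3351 at 1 h (change -1.84, SE 0.19). The 1 h t-chalcone libraries stood close to the EtOH ones, at 3574, 3778 and 3226 for PSAH2 and 1650, 1823 and 1654 for ATPD. The 5 genes not called were PSAE2, PSAH1, PSBR, PSB27 and PETC, with changes from -0.67 to -0.37. All 7 green tissue markers were lower at 1 h too, with a summed level of 187200 to 206800 at 0 h and 88530 to 97340 at 1 h, and 4 of 7 shoot markers that are not photosynthetic.

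At 3 h, 2 of the 34 were called lower than at 0 h (PSBQ2 and PETE1) against 5.35% of all genes, with a median of -0.33. At 6 h 17 were lower and 1, LFNR2 (change 0.71, SE 0.20), was higher, against 6.75% of all genes. At 12 h, in the dark, 12 were lower and 3 higher (PSB28, PETC and PGR5), against 29.1%. The highest PETC value over all shoot EtOH libraries was 27940, where the median was 9372. How far its 12 h call rests on that value is not given here. The most negative 12 h change, that of PSAH1 (-2.35, SE 0.71), rests on the 121.5 counts of the shallow replicate 2. At 24 h, the same hour of the day as 0 h, 13 were lower and 2 higher (PSB28 at 0.87 and PGR5 at 0.60), against 18.1%. The 3 h count was 16 and the 6 h count 31 without the shallow libraries, none of which is at 0, 3 or 6 h in shoots. The 6 h count was 9 without EtOH 0 h replicate 1 and 10 without EtOH 6 h replicate 3, and the 3 h count was 1 without EtOH 0 h replicate 1 or 3 or without EtOH 3 h replicate 3. All these comparisons share the 3 libraries at 0 h. Marker lists moved as well. Of 12 root markers, 4 were higher at 6 h, 8 at 12 h and 9 at 24 h than at 0 h in shoots. Their summed level overlapped (5882 to 6207 at 0 h, 4368 to 7060 at 6 h, 3645 to 7869 at 12 h and 3583 to 7307 at 24 h). That sum rests mostly on PYK10 and says little about the other root markers. Of 7 green tissue markers, 3 were lower and 1 higher at 6 h, 1 was higher at 12 h and 4 were higher at 24 h. Of 7 shoot markers that are not photosynthetic, none was called at 6 h (0 at an unadjusted p under 0.05), 6 were lower at 12 h (median of the 7, -1.18) and 2 at 24 h. The part of these lists in the counts of members was not tested.

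From 0 h to 24 h the median change was -0.60 for photosystem I, -0.40 for photosystem II and 0.03 for transport genes. PSAF had 31890, 28200 and 28580 counts at 0 h and 14550, 13350 and 12300 at 24 h (change -1.14, SE 0.13, limma adjusted p = 2.34e-07). PSBQ2 (-1.10, SE 0.15), LFNR2 (-1.23, SE 0.20) and FD2 (-0.98, SE 0.17) were lower at 24 h as well.

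**Figure D5:**
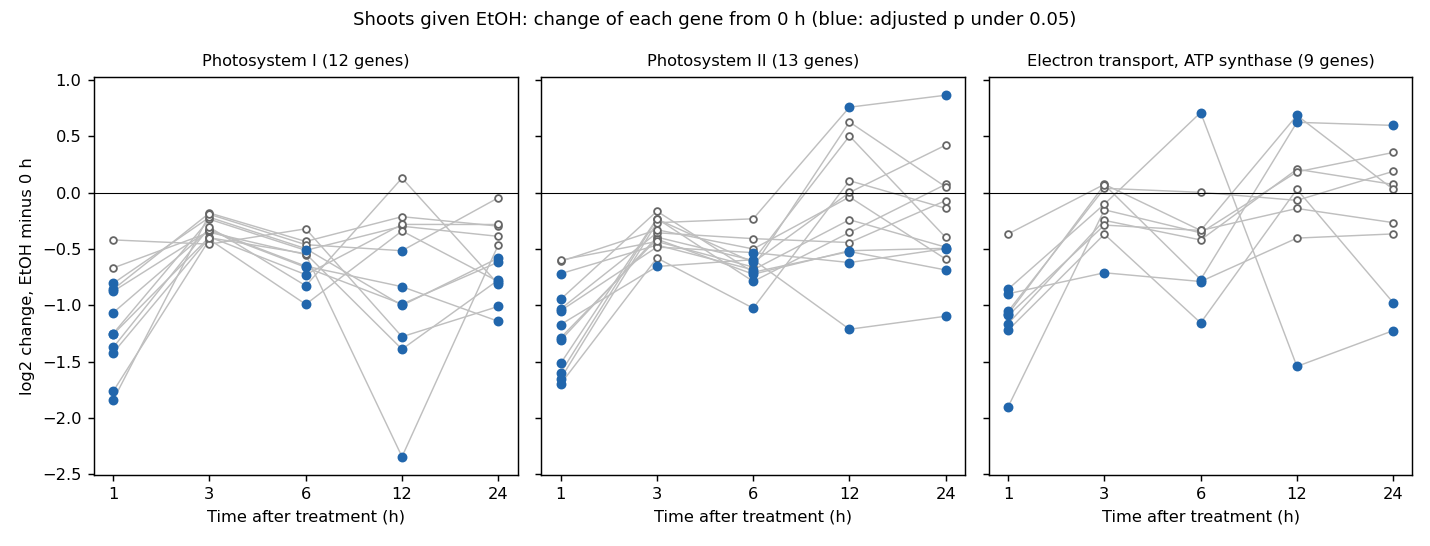
Log2 change of each gene from 0 h in shoots given EtOH, at 1, 3, 6, 12 and 24 h, by complex. Each line is 1 gene and blue points have an adjusted p under 0.05. All 34 genes are lower at 1 h, most come back towards 0 at 3 h, and they spread out at 12 and 24 h.

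Levels between genes were compared per kilobase of the longest RefSeq transcript (TAIR10.1 annotation) in shoot EtOH libraries. PSBR, a photosystem II subunit tied to the oxygen-evolving complex, was highest, with a median of 39200 and a range of 28100 to 110000 over 18 libraries. PSBO1, PSAO and PSBP1 followed with medians of 24300, 23800 and 22700, and their ranges overlapped. PSB28 (796), PGR5 (1170), PETE1 (1500) and PSB27 (1720) were lowest. PETE2, the other plastocyanin gene, had a median of 18300 per kilobase.

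All 34 genes were lower in roots than in shoots by the mean of the 6 EtOH groups of each tissue, where 32.9% of all genes were called lower in roots. PSAH2 and PSAE1 differed most, by 305-fold and 300.0-fold (log2 difference -8.25, SE 0.14, and -8.23, SE 0.14). The smallest differences were those of PGR5 (18.8-fold), PSB28 (30.5-fold), FD2 (32.3-fold) and ATPC1 (45.8-fold). FD2 ranged from 113.7 to 235.6 counts in root EtOH libraries and from 3086 to 10370 in shoot ones. Of 6 further ferredoxins and reductases, 3 were higher in roots, all forms of non-photosynthetic tissue: FD3 (log2 difference 2.56, SE 0.12), RFNR2 (2.65, SE 0.09) and RFNR1 (0.65, SE 0.15). FD1, FDC1 and FDC2 were lower in roots, as the 34 were.

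Root values lay near the lower limit of the data for several members. In root libraries PETE1 stood at the lowest value of the library in 5 of 33 cases. In roots EtOH 0 h replicate 1 that lowest value was 27.0, which PSAE1 and ATPD both had there. In roots EtOH 3 h replicate 1 the lowest value was 35.28. PSAE2, PSAF, PSAK, PSAL, PSAO, PSBW, PSBX, PETE2 and LFNR1 were among the members that stood at it there.

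In roots no member was called for t-chalcone at any time by limma. Over all genes tested in roots, 4.61% were called at 1 h and 13.6% at 3 h. At 6, 12 and 24 h the shares were 0.449%, 0.0302% and 1.91%. Of the 34, the number with an unadjusted p under 0.05 was 0, 5, 2, 0 and 3 at these times. The shares above are at an adjusted p, so they are not the background of these counts. At 3 h the share of all genes at an unadjusted p under 0.05 is at least 13.6%. The exact shares at that p are not given here. By edgeR 0 were called at every time, and without the shallow libraries 1 was, PSAN at 24 h (change -0.93, limma adjusted p = 0.0216). All 3 root t-chalcone libraries at 24 h carry an S number, so the S number and treatment cannot be told apart there. Libraries with an S number were left out in a further fit of roots at 12 h, where no member was called with all libraries.

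At 6 h all 12 photosystem I genes had negative changes in roots, with a median of -0.58, against -0.28 for photosystem II and -0.07 for transport. PSAN had 109.8, 98.64 and 102 counts with EtOH and 61.56, 81.36 and 55.19 with t-chalcone (change -0.66, SE 0.35, limma adjusted p = 1). Its groups did not overlap, as in 6 of the 12, and the share of all genes without overlap was not computed. The within-library difference of photosystem I minus II was -0.56 to -0.37 with EtOH and -0.95 to -0.66 with t-chalcone. Across the 34 genes the 6 h changes in roots and shoots, which share no library, had a Pearson r of 0.68 and a Spearman rho of 0.71. At 1, 3, 12 and 24 h the Pearson r was 0.08, -0.40, 0.22 and -0.18, and at 3 h 2 of the 34 changes had the same sign in both tissues. Genes are not independent replicates. The summed level of green tissue markers in roots at 6 h overlapped between treatments, at 1137 to 1292 with EtOH and 962.1 to 1472 with t-chalcone.

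At 3 h in roots the changes were positive for 31 of the 34, with a median of 0.50 where that of all genes was 0.15. By complex the medians were 0.56 for photosystem I, 0.53 for photosystem II and 0.24 for transport, and 0.28, 0.30 and 0.11 without the shallow libraries. The largest rises were those of PSAF and PETE2 (both 208% of EtOH), PSAL (200%), PSBW (195%) and LFNR1 (194%). All of these genes stood at the floor of 35.28 in the shallow EtOH replicate 1. Leaving out the shallow EtOH replicate 1 gave 0 calls, leaving out replicate 2 gave 2 and leaving out replicate 3 gave 9. Whether the t-chalcone effect differed between tissues was tested in a fit of all 66 libraries. None of the 34 passed the F test, against 1.75% of all genes, the lowest limma adjusted p being 0.169 for PSBQ2. Without the shallow libraries 6 passed, and without roots EtOH 3 h replicate 3, 1 did.

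Against 0 h, few members were called in EtOH roots, and the same limit on the 0 h label holds. Of all genes, 25% were called at 1 h, 18.8% at 3 h and 19.1% at 6 h, and 17.3% and 20.7% at 12 and 24 h. At 1 h PSAD1, ATPC1 and FD2 were higher than at 0 h, and PSBO2 and PGR5 lower. PGR5 had 108.1, 50.12 and 39.37 counts at 0 h and 34.96, 24.92 and 20.07 at 1 h (change -1.17, SE 0.27, limma adjusted p = 0.00162). The 108.1 came from the shallow replicate 1, whose lowest value was 27.0. By 12 h PGR5 was higher, at 112.3, 123.2 and 128.6 (change 1.01, SE 0.27).

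ATPD and FD2 were also called higher at 12 h, ATPD and PGR5 at 24 h, ATPC1 higher and PSBO2 lower at 3 h, and none at 6 h, where 2 had an unadjusted p under 0.05. These counts depend on single libraries, most of all the shallow roots EtOH 0 h replicate 1. Its mean log2 level of photosystem I genes was 7.42, against 5.60 and 5.27 in 0 h replicates 2 and 3. Without replicate 1 of 0 h, 11, 9, 2, 10 and 7 members were called at 1, 3, 6, 12 and 24 h, against 5, 2, 0, 3 and 2 with it. Without 0 h replicate 2 the 1 h count was 3 and the 24 h count 1. Without 0 h replicate 3 the counts were 3, 4, 6 and 1 at 1, 3, 6 and 12 h. Leaving out a library of the later time gave 2, 2 and 3 at 1 h for replicates 1, 2 and 3, and 1, 1 and 0 at 24 h. It gave 1 and 4 at 3 h for replicates 2 and 3, and 2 at 6 h for replicate 1.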

How the data were processed

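The deposited table gave a signal per gene, a count scaled by 1 size factor per library. The submitters' processing notes name DESeq2 1.14.1 and the build TAIR10 for what the authors deposited. The aligner, counter and strand setting were not stated there or in the labels. Libraries were made with an Illumina TruSeq RNA kit, per the labels' protocols.

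Of 72 columns, 6 labelled untreated (0 h) repeated the EtOH 0 h values exactly and were dropped, which left 66. In every library 100.0% of values were whole multiples of the lowest value within 0.01, and depth was taken from these recovered whole numbers. No value was 0: the lowest value covered 5.40% to 20.0% of genes in libraries of 866000 counts or more, and 33.0% to 77.8% in the 5 shallower ones, so low genes there are at a floor.

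Values were analysed as log2(value + 1) with limma 3.58.1 (mean-variance trend, R 4.3.3), 1 mean per group, 33 libraries per tissue, on genes that reached 10 in 3 or more libraries (22884 in shoots, where this removed none, and 19835 in roots). P-values are two-sided. The scale understates changes of low genes. Tissues were compared in a fit of all 66 libraries. Alternatives were a pseudocount of 8, no filter, TMM scaling, edgeR 4.0.16 (quasi-likelihood) on recovered whole numbers, only the groups compared, and leaving out libraries. The scripts were tested on simulated data. All 34 members are reported. Of other lists, genes past the threshold were named by size, at most 4 per list and comparison. Genes that weigh most in a marker sum were named as well. Further values named are described as not called. Members and lists were chosen with earlier results of these data known. No sequences were used here.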

Additional observations from a re-analysis of the deposited data

Results flagged for a closer look

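The 16 genes below had a t-chalcone effect in shoots that differed between the 5 times, by an F test adjusted over all genes tested. Among photosystem I genes the adjusted p was 0.00198 for PSAD1, 1.36e-07 for PSAD2, 0.00223 for PSAE1 and 0.0182 for PSAE2. It was 1.31e-07 for PSAF, 0.000524 for PSAG, 0.00186 for PSAH2 and 0.0151 for PSAK. For PSAL it was 0.00124, for PSAN 0.000758 and for PSAO 0.000252.

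Among photosystem II genes the adjusted p was 5.81e-07 for PSBQ2, 8.24e-05 for PSBW, 0.0236 for PSBY, 0.00606 for PSB28 and 0.00108 for PSBS. PSB28 and PSBS differed from the photosystem I genes in direction at 6 h. PSB28 had changes of 1.00 at 6 h and -0.86 at 24 h, and PSBS of 0.38 and -0.90. PSAF, by contrast, had -1.43 at 6 h and 0.46 at 24 h, but was not typical at 24 h. There PSAF stood at 138% of the EtOH level, while PSAD1 stood at 104%, PSAH2 at 101% and PSAK at 90.5%. No photosystem I gene was called at 24 h by limma with all libraries.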

How the results depend on the processing

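No direction of a called member was reversed under any alternative run. The shoot counts at 6 h (14 for t-chalcone) and at 1 h (29 for EtOH against 0 h), and the 34 genes lower in roots, stayed within 1.5 times of these values in every alternative. Without the 5 shallow libraries the counts were 14 at 3 h and 4 at 24 h for t-chalcone in shoots, 16 and 31 for EtOH in shoots at 3 and 6 h, and 1 for t-chalcone in roots at 24 h. For EtOH in roots they were 12, 12, 3, 15 and 8 at 1, 3, 6, 12 and 24 h. They were 6 for the effect between tissues and 31 for the effect between times in shoots, and the 12 h photosystem I minus II median was -0.001. With edgeR they were 1, 1 and 2 for t-chalcone in shoots at 3, 12 and 24 h, and 15, 10, 3, 11 and 10 for EtOH in roots at the 5 times. At 12 and 24 h in shoots a pseudocount of 8 gave 5 and 2, TMM scaling 5 and 2, and the groups compared alone 0 and 2. TMM scaling gave 1 for EtOH in roots at 24 h, and leaving out the libraries with an S number (added after seeing the data) gave 0 at 24 h in shoots. The cause was not tested. Shares of all genes called in these alternative fits are not given here.

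Leaving out 1 library at a time, counts for t-chalcone in shoots were 0 to 5 at 3 h, 0 to 15 at 12 h and 1 to 3 at 24 h, and 0 to 9 in roots at 3 h. For EtOH in shoots they were 1 to 2 at 3 h and 9 to 14 at 6 h, and in roots 2 to 11, 1 to 9, 0 to 6, 1 to 10 and 0 to 7 at the 5 times. The effect between tissues gave 0 to 1, the effect between times in shoots 15 to 29, and the 12 h photosystem I minus II median -0.001 to 0.388. No paired analysis was possible because the labels give no replicate numbers shared between groups. Depth limits the root values most, where some members stood at a library's lowest value.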
